A study of Mus musculus with 4 samples.

Results

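Irradiated microglia sampled 1 week after a whole-brain dose were compared with sham microglia sampled at the same time. The comparison rests on 2149 irradiated and 1582 sham cells, or 3731 of the 8369 cells that passed the cell filter in the whole series. Cells were kept from 1000 unique molecular identifiers (UMIs, the tags that count each captured transcript once) and 500 detected genes, with at most 10% of UMIs from mitochondrially encoded genes. The UMIs of each library were summed and scaled to a sum of 1000000 per library (CPM), and 8198 of 27998 gene identifiers reached 100 UMIs over both libraries and are described here.

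The series profiled single microglia of C57BL/6 mice by droplet sequencing on the 10x Genomics platform. The irradiated mice received 8 Gy to the whole brain in a single exposure at postnatal day 21, and the sham mice were controls without a dose. Each library pooled cells of 4 mice, and each group, irradiated at 1 week, sham at 1 week, irradiated at 6 h and sham at 6 h, was 1 library. The labels name the brain as the source while the design text speaks of hippocampal microglia, and the study asked whether the genes that answer to radiation do so together in single cells. The labels do not give the sex of the mice.

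Because each side is 1 pooled library, the differences have no replicate check and no test, and no p-value is given. A log2 fold is irradiated over sham, with the exact conditional binomial 95% interval in brackets, which covers counting error only and not the spread between mice, pools or cells. A gene is called higher or lower from a fold of 1.5. The irradiated library held 7716334 UMIs in kept cells and the sham library 5675117, with a median of 3437 UMIs per cell in the irradiated library and 3594 in the sham library. At least 3 of 9 microglia markers were detected in 2149 of 2149 irradiated cells and in 1581 of 1582 sham cells, and their summed level was 49653 CPM in the irradiated library against 47787 CPM in the sham library. Summed markers of monocytes, border macrophages, neutrophils, T cells and NK cells came to at most 24.5 CPM in either library, and Ly6c2, S100a8, S100a9 and Cd3e had no UMI. Astrocyte markers summed to 182 CPM in the irradiated and 144 CPM in the sham library, nearly all of it Slc1a3. B cell markers summed to 67.8 CPM in the irradiated and 74.5 CPM in the sham library, nearly all of it Cd79b with Ms4a1 at 0, and oligodendrocyte markers to 108 CPM in the irradiated and 112 CPM in the sham library, mostly Cnp and Mag. The 7 neuronal markers summed to 47 UMIs in 19 irradiated cells against 3 UMIs in 3 sham cells, and 6 cell barcodes occurred in both libraries. Doublets were not called, and with only 1 kept barcode at 1 week below 3 microglia markers there was no cell class in these libraries that could serve as a background for free RNA.

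Microglia are the resident macrophages of the brain. Ionising radiation breaks DNA, the damage kinases stabilise the transcription factor p53, and p53 induces genes that stop the cell cycle, feed back on p53, repair DNA or start cell death. Microglia are long-lived and normally divide rarely, but survivors can divide to refill the niche after cells are lost.

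Of the 8198 genes, 213 were at least 1.5-fold higher in the irradiated library (2.6% of those described) and 166 were at least 1.5-fold lower (2.02%). The median log2 fold of all described genes was 0.04, and 75 genes were at least 2-fold higher against 27 at least 2-fold lower. The distribution had a long upper tail, with 21 genes at least 4-fold higher and 1 gene, Lgals3, at least 4-fold lower. Of the 213 higher genes, 94 had fewer than 50 UMIs in the sham library, so many reached the 100 UMI minimum mainly through the library in which they were high. At 6 h, 703 of 8798 genes (7.99%) were at least 1.5-fold higher and 701 (7.97%) at least 1.5-fold lower in irradiated than in sham cells.

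**Figure D1:**
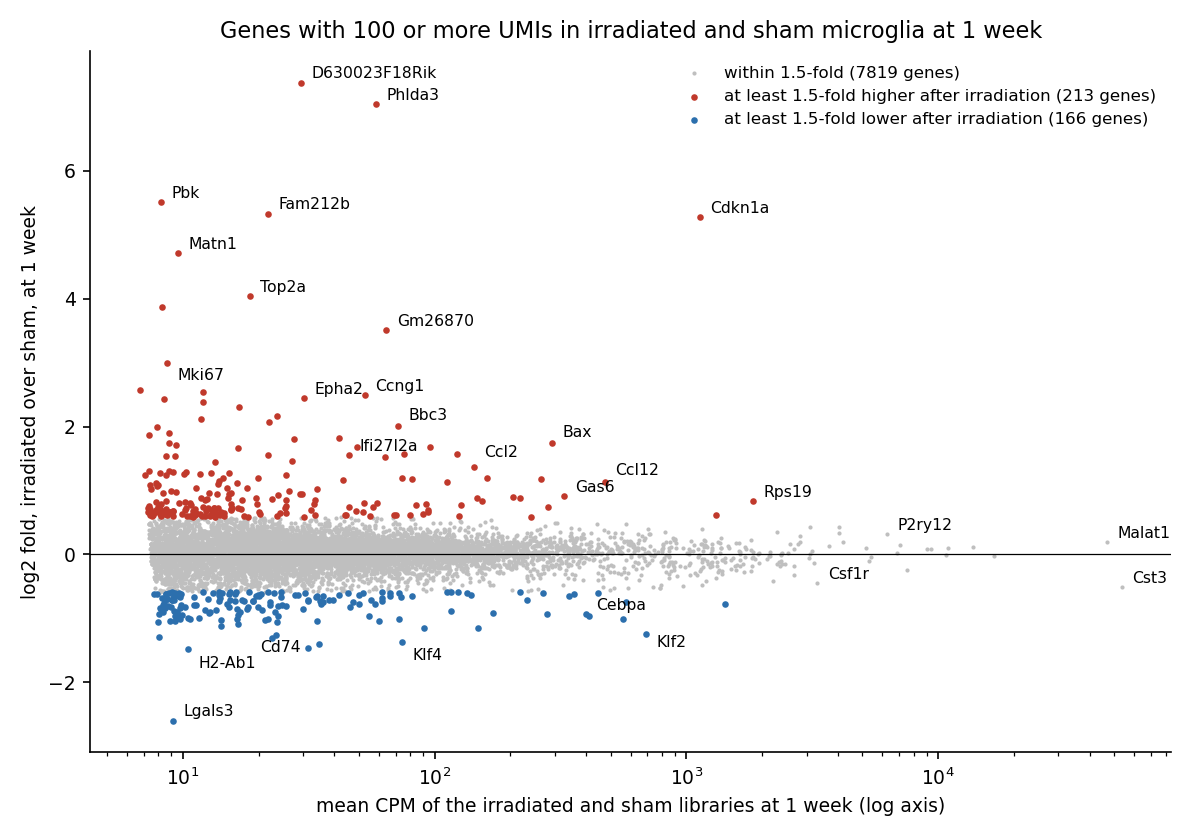
Each point is 1 of the 8198 described genes, with its mean CPM over the irradiated and sham libraries at 1 week on a log axis and its log2 fold of irradiated over sham on the vertical axis. The 213 higher genes (red) reach a log2 fold of 7.38 at D630023F18Rik, while the 166 lower genes (blue) end at -2.60 at Lgals3.

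Known targets of p53 were among the genes with the largest folds at 1 week, beside mitosis genes and genes in no list. Cdkn1a, which encodes the cyclin-dependent kinase inhibitor p21 (ENSMUSG00000023067, chr17:29090976-29100727, plus strand, GRCm38), had 17026 UMIs in the irradiated library against 322 in the sham library. This is 2206 CPM in irradiated cells against 56.7 CPM in sham cells, a log2 fold of 5.28 (5.12 to 5.44). Phlda3, which encodes a repressor of the kinase Akt (chr1:135766119-135769136), had 899 UMIs in the irradiated library and 5 in the sham library, a log2 fold of 7.05 (5.82 to 8.67). Both genes were low in each sham library, since Cdkn1a stood at 52.2 CPM and Phlda3 at 0.616 CPM in sham cells at 6 h. At 6 h the irradiated library held 2944 CPM of Cdkn1a and 350 CPM of Phlda3, so the 2 irradiated libraries lay above both sham libraries for each gene.

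Promoter stretches of 4 of the higher p53 targets are printed because they carry both half-sites of a p53 response element close to an annotated start site. A gene can have several annotated start sites, and the RefSeq promoter with the fewest mismatches to the consensus is shown. The element has 1 mismatch in Cdkn1a, Ccng1 and Rps27l and 2 in Bax. They are RefSeq sequence of GRCm38.p6, given 5′ to 3′ on the strand of the gene, and capitals mark the element with both of its half-sites. Cdkn1a lies at chr17:29090908-29090967 (plus strand), Ccng1 at chr11:40755442-40755501 (minus strand), Bax at chr7:45467059-45467119 (minus strand) and Rps27l at chr9:66946276-66946335 (plus strand).
Cdkn1a: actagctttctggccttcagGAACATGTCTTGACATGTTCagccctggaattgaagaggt
Ccng1: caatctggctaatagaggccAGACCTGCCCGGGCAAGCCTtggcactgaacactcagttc
Bax: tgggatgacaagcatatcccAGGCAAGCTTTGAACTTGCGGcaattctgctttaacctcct
Rps27l: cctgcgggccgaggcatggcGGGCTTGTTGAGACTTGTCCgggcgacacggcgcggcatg

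The element was searched as 2 half-sites of 10 bases with a spacer of at most 1 base, the central C and G of each half-site kept and at most 2 mismatches to the consensus in all. The consensus reads the same on both strands. In windows of 250 bases before to 50 bases after the start, 6337 described genes had a RefSeq promoter and 59 of them (0.931%) held such an element. Among genes higher at both times it was 7 of 65 (10.8%), among genes lower at 1 week 1 of 113 (0.885%). With at most 1 mismatch the count was 6 of 6337 genes, 3 of which (Cdkn1a, Ccng1 and Rps27l) were among the genes higher at both times. With at most 3 mismatches it was 3.91% of all genes with a promoter and 21.5% of those higher at both times. The motif was chosen after the fold changes were known, and a match describes the letters and is no evidence of binding.

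Feedback regulators of p53 were partly higher. Of 16 genes in this list 14 were described, 4 were higher and none was lower, with a median log2 fold of 0.34. Ccng1, cyclin G1, stood at 89.9 CPM in irradiated cells against 16.0 CPM in sham cells, a log2 fold of 2.49 (2.17 to 2.82). Mdm2, the ubiquitin ligase that degrades p53, stood at 103 CPM in irradiated cells against 45.1 CPM in sham cells, a log2 fold of 1.20 (0.99 to 1.40). In irradiated cells at 6 h both were higher still, at 320 CPM for Ccng1 and 233 CPM for Mdm2. The other higher members were Trp53inp1 (1.66) and the RNA-binding protein gene Zmat3 (1.54). Mdm4, the partner of Mdm2, had a log2 fold of 0.56 and the phosphatase gene Ppm1d 0.12, both under the 1.5-fold limit. The transcript of p53 itself, Trp53, had 35.4 CPM in irradiated cells and 40.0 CPM in sham cells.

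Among p53 targets that promote cell death, 12 of 17 were described, 4 were higher and 1 lower, with a median log2 fold of 0.25. Bax, the effector that opens the outer mitochondrial membrane, had 449 CPM in irradiated cells against 135 CPM in sham cells, a log2 fold of 1.74 (1.62 to 1.85). Bbc3, which encodes the BH3-only protein Puma, had 115 CPM in irradiated cells against 28.5 CPM in sham cells, a log2 fold of 2.01 (1.77 to 2.26). The nuclease gene Aen was higher by 1.82 and Pmaip1, which encodes Noxa, by 1.03 on the log2 scale. The lower member was the receptor gene Tnfrsf12a at -0.67. In the separate list of Bcl2 family and survival genes, 2 of 18 described members were higher, namely the death inhibitors Bcl2 at 0.84 and Bcl2l1 at 0.69, and none was lower.

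Of 37 p53 targets in metabolism, repair and Akt signalling 27 were described, 13 were higher and 1 was lower, with a median log2 fold of 0.56. Beside Phlda3, the largest were the receptor tyrosine kinase gene Epha2 at 2.45, the noncoding RNA Pvt1 at 2.30, the sulfatase gene Sulf2 at 2.17 and the stress sensor gene Sesn2 at 2.08. The adenylate kinase gene Ak1 (1.68), the exocyst gene Exoc4 (1.53) and the sugar reductase gene Dcxr (1.14) were also higher. Ddit4, which encodes an inhibitor of mTORC1, had 113 CPM in irradiated cells against 37.9 CPM in sham cells, but 134 CPM in sham cells at 6 h. The lower member was Rrm2b, a ribonucleotide reductase subunit, at -0.67. The sestrin gene Sesn1 at -0.14, and the repair gene Xpc at -0.15, were within the limit.

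Cell cycle brakes other than Cdkn1a were not higher than in sham cells at 1 week. Of 18 listed brakes 8 were described, Cdkn1a was the only one higher, and Gadd45b was lower at -0.72. Btg2, an antiproliferative p53 target, had 1864 CPM in irradiated cells and 1813 CPM in sham cells, a log2 fold of 0.04. Among DNA repair enzymes 1 of 19 described genes was higher, the alkyltransferase gene Mgmt, with 43.0 CPM in irradiated cells against 12.3 CPM in sham cells (1.80, 1.43 to 2.20), and none was lower.

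Over the 4 p53 lists 61 genes were described, 22 were higher and 3 lower at 1 week. All 22 were also at least 1.5-fold higher at 6 h, and 21 of them had the smaller fold at 1 week, with a median log2 fold of 1.67 at 1 week and 2.83 at 6 h. The exception was Ddit4, at 1.58 at 1 week and 1.13 at 6 h. Gdf15, a secreted stress cytokine, differed most between the times, at 1.07 (83 UMIs in the irradiated and 29 in the sham library) at 1 week and 7.57 at 6 h. Cdkn1a differed little, at 5.28 at 1 week and 5.82 at 6 h. The 2 times do not share a library, and a difference between their folds was not tested.

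**Figure D2:**
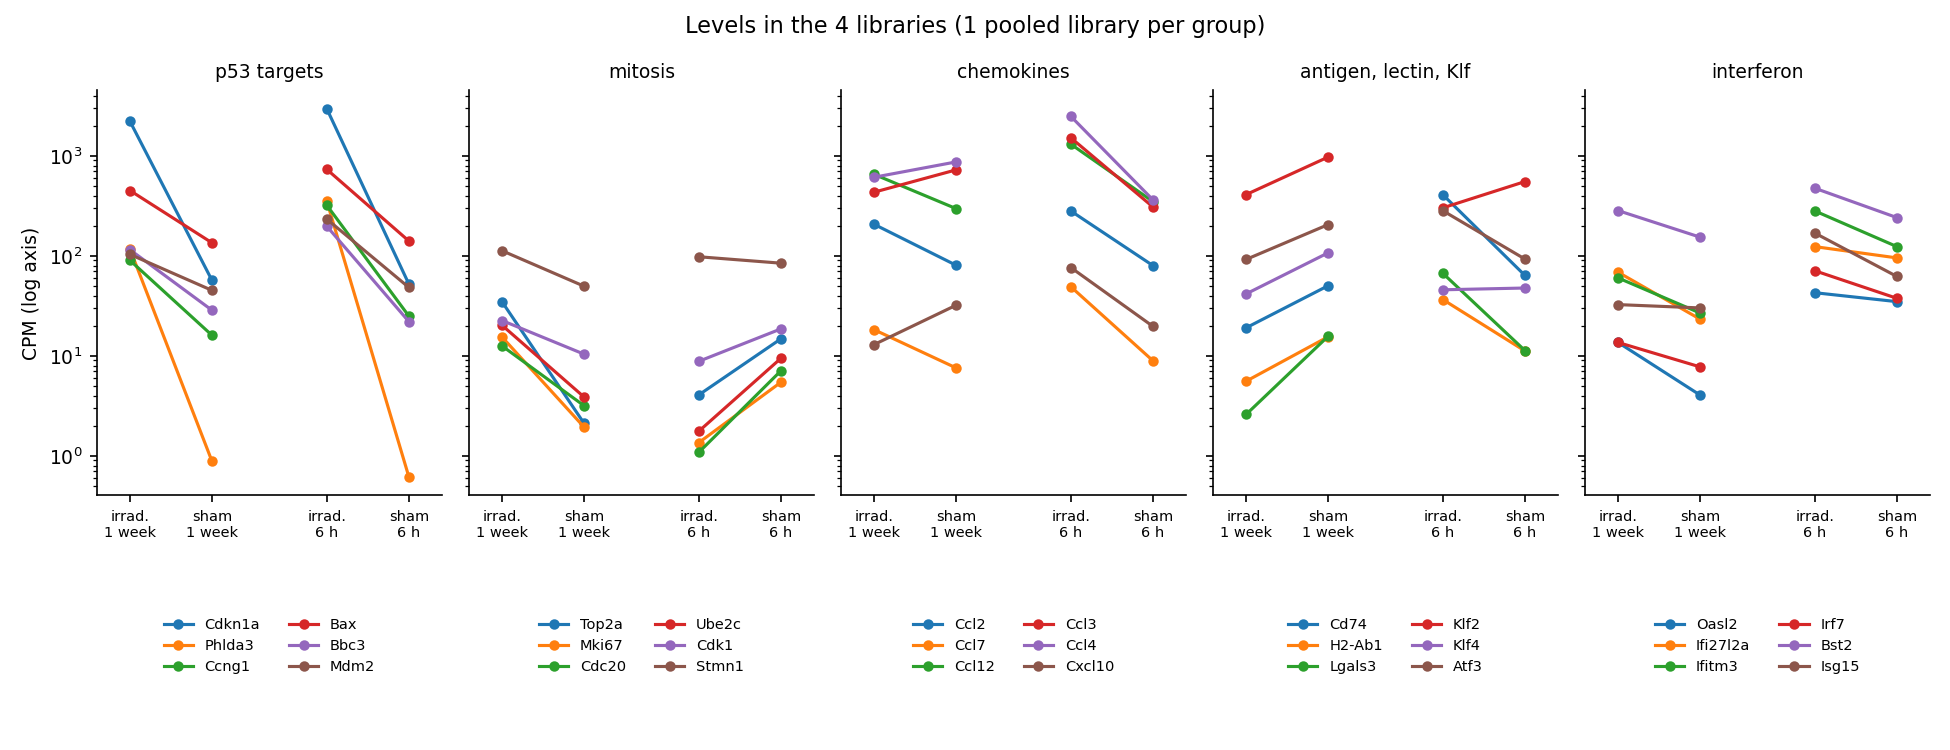
CPM on a log axis of 30 genes in 5 groups, each gene a coloured line, with irradiated left of sham at 1 week and then at 6 h, and 1 pooled library behind each point. The p53 targets are high in both irradiated libraries, the mitosis genes are higher than sham only in the irradiated library at 1 week (Stmn1 excepted), and Ccl3, Ccl4, Cxcl10, Cd74, H2-Ab1, Lgals3 and Atf3 lie on opposite sides of sham at the 2 times.

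The difference in Cdkn1a was spread over most cells. With every cell thinned to 2000 UMIs, which left out 109 irradiated and 189 sham cells below that depth, a Cdkn1a UMI was found in 85.7% of 2040 irradiated cells (84.1 to 87.2%, exact Clopper-Pearson 95% interval) against 6.89% of 1393 sham cells (5.62 to 8.35%). Without thinning the shares were 91.2% of irradiated and 9.86% of sham cells. The median was 3 UMIs in irradiated cells and 0 in sham cells, and 39.0% of irradiated cells (36.9 to 41.2%) held 5 or more against 0.503% of sham cells (0.202 to 1.03%). Within the irradiated library 14.3% of cells held no Cdkn1a UMI, the central range (25th to 75th percentile) was 1 to 6, and the highest count was 33.

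**Figure D3:**
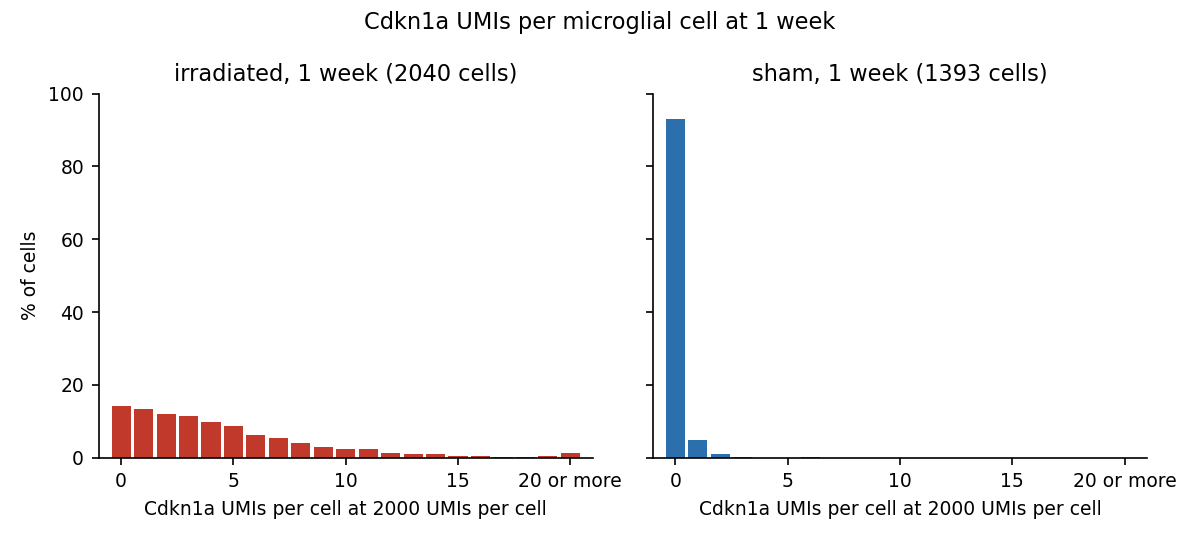
Share of cells (vertical axis, %) by their number of Cdkn1a UMIs after thinning to 2000 UMIs per cell, for 2040 irradiated cells on the left and 1393 sham cells on the right, with cells of 20 or more UMIs in the last bar. Irradiated cells fall over a broad range with 14.3% at 0, whereas 93.1% of sham cells are at 0.

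Other genes picked from those higher at both times were found in the same irradiated cells more often where Cdkn1a was higher. Irradiated cells were grouped by their Cdkn1a UMIs at 2000 UMIs per cell, into 291 cells with 0, 519 with 1 to 2, 611 with 3 to 5 and 619 with 6 or more. The other genes counted were 14 of the 90 that were higher at both times (Phlda3, D630023F18Rik, Fam212b, Ccng1, Mdm2, Bax, Bbc3, Aen, Ak1, Dcxr, Exoc4, Sesn2, Rps27l and Glipr1). They include p53 targets and genes in no list, and other listed p53 genes were not counted. Of these 14 genes, cells held a UMI of a median of 2, 2, 3 and 4 in that order, and 25.1%, 49.3%, 66.1% and 74.3% of cells held at least 3. A Phlda3 UMI was found in 5.50%, 13.1%, 22.7% and 28.4% of these cells, and a Bax UMI in 42.3%, 52.8%, 61.9% and 67.9%. Irradiated cells in which no Cdkn1a was seen still held Bax in 42.3% (36.5 to 48.2%) against 23.5% of all sham cells (21.3 to 25.9%), and Phlda3 in 5.50% (3.18 to 8.78%) against 0.144% (0.0174 to 0.518%). At this depth a cell without a UMI cannot be told from a cell without the transcript.

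Other genes were counted in the same groups of cells. The chemokine gene Ccl3, which was lower in the irradiated library as a whole, was found in 17.9% (13.6 to 22.8%), 25.05%, 25.5% and 29.6% (26.0 to 33.3%) of the cells with 0, 1 to 2, 3 to 5 and 6 or more Cdkn1a UMIs. For the phospholipase gene Pla2g4a the shares were 23.02%, 26.98%, 32.2% and 31.8%. They were 45.7%, 53.9%, 59.1% and 53.5% for Gas6, and 28.5%, 37.4%, 33.6% and 35.9% for Ccnd1. The chemokine gene Ccl12 and the complement receptor gene C5ar1 differed little between the groups of cells. A Ccl12 UMI was found in 40.9%, 42.8%, 41.4% and 41.4% of the cells with 0, 1 to 2, 3 to 5 and 6 or more Cdkn1a UMIs. For C5ar1 the shares were 34.7%, 34.7%, 34.7% and 36.5%. Ccl2 was found in between 9.44% of cells (1 to 2 Cdkn1a UMIs) and 16.3% (6 or more). These are cells of 1 library, so the values describe that library.

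**Figure D4:**
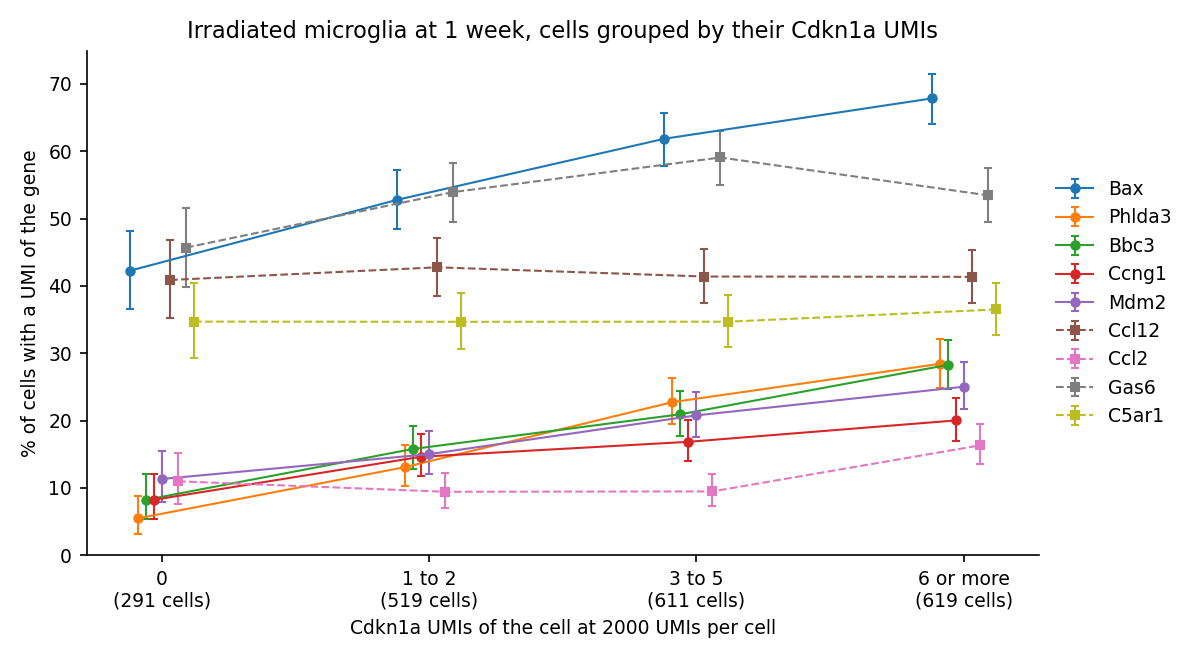
Share of irradiated cells at 1 week with a UMI of the named gene (vertical axis, %) in 4 groups of cells by their Cdkn1a UMIs at 2000 UMIs per cell, with exact Clopper-Pearson 95% intervals for counting error. The p53 targets (solid lines) go up with Cdkn1a, as Bax does between 42.3% and 67.9%, while Ccl12 stays between 40.9% and 42.8%.

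Transcripts of dividing cells formed the other large group. Of 60 G2 and mitosis genes 26 were described, 18 were higher and none was lower, with a median log2 fold of 1.10, although members with few UMIs in sham cells passed the minimum only through the irradiated library. Top2a, the topoisomerase that untangles chromosomes (chr11:98992943-99024189, minus strand), had 268 UMIs in the irradiated library against 12 in the sham library, a log2 fold of 4.04 (3.21 to 5.01). Mki67, the proliferation marker Ki-67, had 119 UMIs in the irradiated and 11 in the sham library (2.99, 2.10 to 4.03). Pbk, a mitotic kinase gene, had 124 UMIs in the irradiated and 2 in the sham library (5.51, 3.63 to 8.57). Birc5, the survivin gene of the chromosomal passenger complex, had 110 UMIs in the irradiated and 15 in the sham library.

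In S phase genes 23 of 38 were described, 8 were higher and none was lower, with a median log2 fold of 0.40. Dut, which removes dUTP, was at 1.24, and the replicative helicase subunits Mcm6, Mcm2 and Mcm5 were at 1.10, 0.99 and 0.97. Pcna, the sliding clamp and itself a p53 target, was at 0.10. Of 16 described G1 genes 3 were higher, led by cyclin D1 (Ccnd1, 224 CPM in irradiated cells against 97.8 CPM in sham cells, 1.20), and 2 were lower, the inhibitor gene Cdkn1c at -1.09 and the transcription factor gene Myc at -0.80. All 21 described clustered histone genes were within 1.5-fold.

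These transcripts came from few cells. At 2000 UMIs per cell, 31 of 2040 irradiated cells (1.52%, 1.03 to 2.15%) held UMIs of at least 3 of 27 mitosis genes against 3 of 1393 sham cells (0.215%, 0.0444 to 0.628%). The 31 cells held 83.4% of the UMIs of these genes in the irradiated library. Outside such cells the 27 genes summed to 28.9 CPM in irradiated and 31.7 CPM in sham cells, which follows in part from choosing the cells by these genes. A Cdkn1a UMI was present in 28 of the 31 cells (90.3%, 74.2 to 98.0%) and in 85.7% of the other irradiated cells, with a mean of 3.13 UMIs in the 31 cells and 4.54 in the others. Without thinning, 39 irradiated cells held at least 3 of the genes, and the means lay the other way. They were 11.1 Cdkn1a UMIs in the 39 cells and 7.86 in the others. Before thinning the 31 cells were deeper, with a median of 5927 UMIs against 3473 in the other irradiated cells.

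At 6 h the direction was the opposite for these genes. Cells with at least 3 of the 27 genes were 4 of 1896 irradiated cells (0.211%) against 17 of 2559 sham cells (0.664%). Top2a stood at 34.7 CPM in irradiated and 2.11 CPM in sham cells at 1 week, and at 4.07 CPM in irradiated and 14.8 CPM in sham cells at 6 h. For Top2a the sham library at 1 week was the lowest of the 4, while Mki67 was lowest in irradiated cells at 6 h (1.36 CPM, against 1.94 CPM in sham cells at 1 week). With the sham library at 6 h in its place the log2 fold at 1 week was 1.23 for Top2a. Cdk1 (0.28), Mcm6 (0.47), Stmn1 (0.41), Cdkn1c (-0.57) and Myc (-0.25) were then within 1.5-fold. Between the sham libraries themselves 169 of 8544 genes (1.98%) were at least 1.5-fold higher and 310 (3.63%) at least 1.5-fold lower at 1 week than at 6 h.

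Promoters of mitosis genes that were higher at 1 week and lower at 6 h are printed for their known cell cycle motifs, the CHR element (TTTGAA, bound by the DREAM and MuvB complexes) and CCAAT boxes (bound by NF-Y), which are in capitals on either strand. They are RefSeq sequence of GRCm38.p6 before the start site, 5′ to 3′ on the strand of the gene. Of the promoters of a gene that hold TTTGAA on either strand, the one with the most CCAAT boxes is shown. Top2a lies at chr11:99024190-99024426 (minus strand), Cdc20 at chr4:118437344-118437406 (minus strand), Mki67 at chr7:135716380-135716577 (minus strand) and Ube2c at chr2:164769691-164769928 (plus strand).
Top2a: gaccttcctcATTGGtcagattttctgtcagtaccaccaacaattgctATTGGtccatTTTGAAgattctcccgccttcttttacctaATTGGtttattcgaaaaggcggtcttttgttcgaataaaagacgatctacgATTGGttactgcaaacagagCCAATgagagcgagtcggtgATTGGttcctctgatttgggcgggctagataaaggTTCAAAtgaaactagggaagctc
Cdc20: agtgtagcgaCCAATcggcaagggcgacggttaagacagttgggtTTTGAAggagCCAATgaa
Mki67: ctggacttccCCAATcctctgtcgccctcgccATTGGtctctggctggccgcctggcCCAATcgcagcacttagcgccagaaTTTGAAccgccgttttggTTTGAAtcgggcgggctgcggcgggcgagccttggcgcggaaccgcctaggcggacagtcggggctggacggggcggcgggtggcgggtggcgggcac
Ube2c: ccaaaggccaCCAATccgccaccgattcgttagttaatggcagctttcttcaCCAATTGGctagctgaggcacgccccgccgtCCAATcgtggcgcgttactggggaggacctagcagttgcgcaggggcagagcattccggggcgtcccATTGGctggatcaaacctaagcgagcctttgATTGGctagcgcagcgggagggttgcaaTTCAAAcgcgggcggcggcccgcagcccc

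Motifs were counted per gene over all its RefSeq promoters. In the windows of 300 bases, TTTGAA stood on either strand for 856 of 6337 genes (13.5%) and for 17 of 33 (51.5%) of the genes higher at 1 week and lower at 6 h. At least 2 CCAAT boxes on either strand, overlapping ones counted separately as in Ube2c, stood in a promoter of 17.2% of all genes and of 15 of these 33 (45.5%). Both were found for 2.73% of all genes and for 11 of the 33 (33.3%), where the 2 motifs could lie in different promoters of a gene. Among genes higher at both times 1 of 65 (1.54%) had both. The motifs were chosen after the folds were known.

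Microglial identity genes differed little. Of 38 described homeostatic surface and secreted genes 2 were higher, none was lower, and the median log2 fold was 0.12. The 2 were Ltc4s, the leukotriene C4 synthase gene, at 0.62 (1582 CPM in irradiated and 1031 CPM in sham cells) and the fatty acid receptor gene Gpr84 at 0.59, just past the limit. Against the sham library at 6 h Ltc4s was at 0.44 and Gpr84 at 0.68. P2ry12, the purine receptor that marks resting microglia, had 6950 CPM in irradiated cells against 5575 CPM in sham cells, a log2 fold of 0.32. The folds of Fcrls (0.33), Tmem119 (0.19) and Cx3cr1 (0.05) were small as well. Csf1r, the receptor that microglia need to survive, was lower by a smaller step than 1.5-fold, at 2799 CPM in irradiated and 3821 CPM in sham cells (-0.45). Against the sham library at 6 h Csf1r was at -0.72, past the limit. At 6 h it had 3120 CPM in irradiated and 4610 CPM in sham cells (-0.56).

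The gene with the largest loss in CPM was Cst3, which encodes the protease inhibitor cystatin C (chr2:148871722-148875692, minus strand). It had 44232 CPM in irradiated cells against 63051 CPM in sham cells, a log2 fold of -0.51, and 47596 CPM in irradiated against 54824 CPM in sham cells at 6 h. It was detected in every cell of both libraries at 1 week at 2000 UMIs per cell. The cathepsin gene Ctss, with 6911 CPM in irradiated and 8165 CPM in sham cells (-0.24), had the next largest loss. The largest gains in CPM, beside Cdkn1a, were in the nuclear noncoding RNA Malat1 (50058 CPM in irradiated and 43618 CPM in sham cells, 0.20), P2ry12, the tetraspanin gene Cd81 (0.43), the actin-binding thymosin gene Tmsb4x (0.12) and Rps19.

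Rps19, a ribosomal protein gene (chr7:24884371-24889806), stood apart from its class. It had 2354 CPM in irradiated cells against 1325 CPM in sham cells, a log2 fold of 0.83 (0.79 to 0.87), and 0.67 at 6 h. Of 83 described ribosomal protein genes only Rps19 and Rps27l were higher, none was lower and the median log2 fold was -0.13. Rps27l, a p53-induced paralogue of Rps27, had 366 CPM in irradiated cells and 162 CPM in sham cells (1.18, 1.07 to 1.29). Against the sham library at 6 h the fold of Rps19 was 0.52, under the limit. Rps12-ps3 (-0.94), named as a pseudogene but typed as protein-coding in GENCODE, and the pseudogene Rps26-ps1 (-1.04) were lower. Both share sequence with their parent genes, so their counts are uncertain.

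Transcription factors of the early response and of the myeloid lineage were among the lower genes. Klf2, a zinc finger factor of quiescent endothelial and immune cells, had 409 CPM in irradiated cells against 971 CPM in sham cells, a log2 fold of -1.25 (-1.31 to -1.18). Its UMIs were found in 27.1% of irradiated cells (25.1 to 29.0%) against 55.7% of sham cells (53.1 to 58.3%) at 2000 UMIs per cell. Klf4 was lower at -1.36, Atf3 at -1.16, Cebpa at -0.94 and Jund at -0.78, and Cebpb had 48.1 CPM in irradiated and 96.4 CPM in sham cells. Of 23 described immediate early genes 6 were lower and none was higher (median -0.13), and of 22 described microglial transcription factors 3 were lower and none higher (median -0.11). Other early genes were within the limit, as Fos was at -0.12, Jun at -0.13, Junb at -0.07 and Egr1 at 0.04. Spi1 (PU.1) was at -0.08, Irf8 at -0.16 and Sall1 at -0.13.

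For most of these factors the sham library at 1 week was the high one. Klf4 had 41.6 CPM in irradiated and 107 CPM in sham cells at 1 week, and 45.8 CPM in irradiated and 47.7 CPM in sham cells at 6 h. Klf2 was lower in irradiated cells at 6 h too, with 302 CPM against 552 CPM in sham cells (-0.87). The 6 h folds of Cebpa (-0.08) and Jund (-0.06) were small, and that of Atf3 was 1.60. Against the sham library at 6 h the log2 folds at 1 week were -0.43 for Klf2, -0.20 for Klf4, -0.01 for Atf3, -0.30 for Cebpa and -0.21 for Jund, all within 1.5-fold. The small heat shock gene Hspb1 (-1.46 at 1 week) and the membrane protein gene Basp1 (372 CPM in irradiated and 746 CPM in sham cells at 1 week) were likewise at -0.22 and -0.26 against that library. Cebpb was at -2.36 against it. The part of the sham libraries' own difference in these folds was not tested.

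Antigen presentation and disease-associated genes were partly lower. Lgals3, the galectin-3 gene of activated macrophages (chr14:47367751-47386160), had 20 UMIs in the irradiated library against 89 in the sham library, a log2 fold of -2.60 (-3.38 to -1.89). Cd74, the invariant chain of MHC class II, had 147 UMIs in the irradiated and 285 in the sham library (-1.40, -1.70 to -1.11), and the class II gene H2-Ab1 had 43 in the irradiated and 88 in the sham library (-1.48, -2.04 to -0.93). These UMIs were few and sat in few cells, as Cd74 was found in 2.99% of irradiated cells (2.29 to 3.82%) and 6.32% of sham cells (5.10 to 7.73%) at 2000 UMIs per cell. Of 10 described genes of the class II list 3 were lower and 1, the costimulator gene Cd80 at 1.27, was higher. Of 25 described disease-associated microglia genes 4 were lower (Lgals3, Csf1, Ank and Cd83) and none was higher, with a median of -0.05, and Apoe was at -0.05 and Trem2 at -0.19. At 6 h the same 4 genes were higher in irradiated cells, Lgals3 by 2.56, Csf1 by 1.73, Cd83 by 1.30 and Ank by 0.65. The summed monocyte markers were 17.2 CPM in irradiated and 15.3 CPM in sham cells, and the border macrophage markers 24.5 CPM in irradiated and 20.1 CPM in sham cells. Within the border macrophage markers Ms4a7 had 2 UMIs in the irradiated and 32 UMIs in the sham library, in the direction of Lgals3, Cd74 and H2-Ab1, whereas Mrc1 had 20.6 CPM in irradiated and 12.5 CPM in sham cells. Their part in the class II and Lgals3 values was not tested.

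Chemokines split in direction. Of 17 described chemokine and receptor genes 4 were higher, 3 were lower and the median was -0.10. The monocyte attractants Ccl2, Ccl7 and Ccl12 were higher, with Ccl2 at 207 CPM in irradiated cells against 80.5 CPM in sham cells (1.36, 1.21 to 1.51), Ccl7 at 1.27 and Ccl12 at 653 CPM in irradiated against 297 CPM in sham cells (1.14, 1.06 to 1.22). C5ar1 was at 0.90. Ccl3 was lower, at 433 CPM in irradiated against 723 CPM in sham cells (-0.74), as were Ccl9 at -0.96 and the interferon-induced Cxcl10 at -1.31, and Ccl4 was at -0.51. A Ccl12 UMI was found in 41.7% of irradiated cells (39.5 to 43.8%) against 23.3% of sham cells (21.1 to 25.6%). Counts were uneven over cells, since the top 5% of cells held 79.2% of Ccl2 UMIs in the irradiated and 88.0% in the sham library, so few cells decide these sums and the counting intervals understate the error. With the sham library at 6 h, Ccl3 was at 0.49, while Ccl2 was at 1.37 and Ccl12 at 0.90.

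For interferon response genes the result depended on which sham library was used. Of 38 described members 11 were higher and none was lower (median 0.21), led by Oasl2 with 105 UMIs in the irradiated and 23 in the sham library (1.75), Ifi27l2a at 1.56 and Ifitm3 at 1.17. The sham libraries differed more than that. In sham cells at 1 week 25 of 47 described interferon genes were at least 1.5-fold lower than in sham cells at 6 h, with a median log2 fold of -0.66, and both comparisons use the sham library at 1 week. Oasl2 had 13.6 CPM in irradiated and 4.05 CPM in sham cells at 1 week, and 42.8 CPM in irradiated and 34.8 CPM in sham cells at 6 h. Against the sham library at 6 h the folds were -1.36 for Oasl2, -0.48 for Ifi27l2a, -1.04 for Ifitm3 and -1.47 for Irf7.

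Lipid mediator genes and the ligands of phagocytic receptors were also among the higher genes. Pla2g4a, the phospholipase that frees arachidonic acid, had 183 CPM in irradiated cells against 61.8 CPM in sham cells (1.57, 1.40 to 1.74), and its UMIs were found in 29.5% of irradiated against 11.8% of sham cells. Alox5, the 5-lipoxygenase gene of leukotriene synthesis, had 39.9 CPM in irradiated against 14.4 CPM in sham cells (1.47), and its partner Alox5ap was at 0.38. In the lipid list 4 of 27 described genes were higher (Pla2g4a, the sterol genes Msmo1 at 0.73 and Insig1 at 0.64, and Ltc4s), and none was lower. Against the sham library at 6 h, Msmo1 (0.28), Insig1 (0.55) and Ltc4s (0.44) were under the limit, while Pla2g4a stayed past it. Gas6, a ligand that bridges dying cells to TAM receptors, had 427 CPM in irradiated against 227 CPM in sham cells (0.91, 0.82 to 1.00) and 0.36 at 6 h, and the related Pros1 was at 0.74. Against the sham library at 6 h Gas6 was at 0.80 and Pros1 was under the limit.

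Several of the highest genes stood in none of the lists. D630023F18Rik (chr1:65105285-65123214, minus strand), a protein-coding gene with no assigned name in the files, had 452 UMIs in the irradiated library and 2 in the sham library (7.38, 5.52 to 10.43). Fam212b had 328 UMIs in the irradiated and 6 in the sham library (5.33, 4.19 to 6.79), and Matn1, which encodes the cartilage matrix protein matrilin 1, had 143 in the irradiated and 4 in the sham library (4.72, 3.33 to 6.61). All 3 had larger folds at 6 h, at 9.31, 6.81 and 9.67. Glipr1 was at 1.68 at 1 week and 3.05 at 6 h. Epor, the erythropoietin receptor gene, had 111 UMIs in the irradiated and 25 in the sham library (1.71) but 0.03 at 6 h. Among the lower genes in no list, Ramp1, a partner of the CGRP receptor, was alike at both times, with 56.1 CPM in irradiated against 125 CPM in sham cells at 1 week (-1.16, -1.33 to -0.98) and 48.5 CPM in irradiated against 124 CPM in sham cells at 6 h (-1.36).

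Of the 213 higher genes 90 were also higher at 6 h, 41 were at least 1.5-fold lower at 6 h and 82 were within 1.5-fold there. Of the 41, only 30 reached 100 UMIs over both 6 h libraries, so the 6 h fold of the others rests on fewer UMIs. For 81 of the 90 the fold at 1 week was the smaller one, with a median log2 fold of 1.14 at 1 week and 1.71 at 6 h. The 9 with the larger fold at 1 week were Gm26870, Ddit4, Alox5, Prune2, Lmnb1, Hbegf, Rps19, Slfn2 and Gm26740. Gm26870, a long noncoding RNA at the start of the assembled chromosome 9 (chr9:3000282-3038313, minus strand), led them, with 118 CPM in irradiated against 10.4 CPM in sham cells (3.51, 3.13 to 3.91) and 1.86 at 6 h. Of the 166 lower genes 27 were also lower at 6 h, 31 were higher at 6 h and 108 were within 1.5-fold there.

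**Figure D5:**
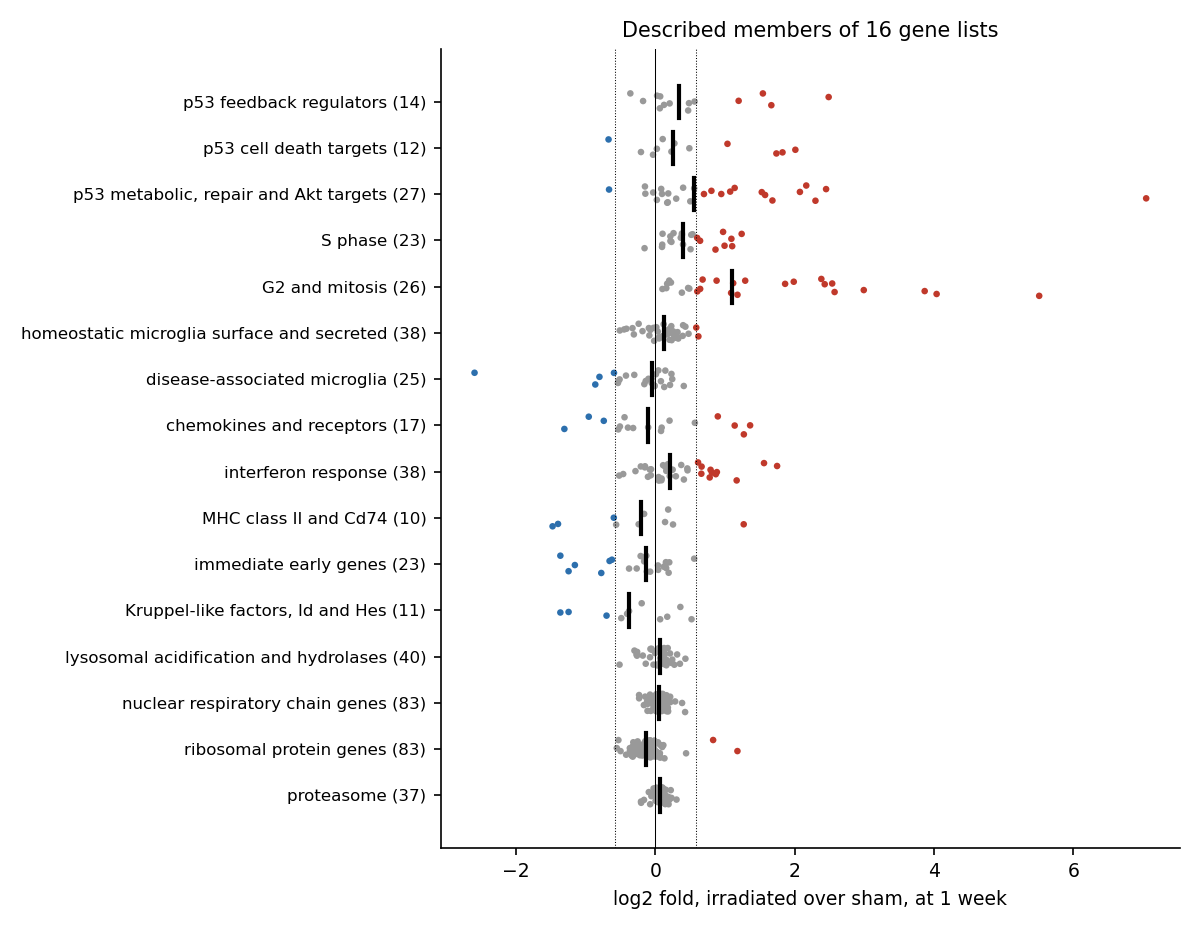
Log2 fold of irradiated over sham at 1 week (horizontal axis) for the described members of 16 gene lists, each point a gene, red from 1.5-fold higher, blue from 1.5-fold lower, black bars the medians, dotted lines the 1.5-fold limits and the number of described members in brackets. The medians of the plotted p53, S phase and mitosis lists (p53 cell cycle brakes, median -0.11, not plotted) lie right of 0, at 1.10 for G2 and mitosis, while the described lysosomal, respiratory chain and proteasome genes lie within the limits.

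General metabolism and protein turnover were alike in the libraries. All 40 described lysosomal genes, 83 nuclear respiratory chain genes, 37 proteasome genes, 27 oxidative stress and metallothionein genes and 30 splicing and RNA-binding genes were within 1.5-fold, as were all 12 mitochondrially encoded genes. Of 24 described genes of the NF-kB pathway none was higher and 1, the deubiquitinase gene Otud1 at -0.59, was lower. All 21 described genes of TGF-beta signalling were within the limit, as were the described cathepsin, purine signalling, MAPK phosphatase, circadian clock and hypoxia genes.

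The remaining lists held few called genes. Of 17 described genes of the senescence-associated secretory list 4 were higher and 1 was lower. The 4 were Ccl2, Gdf15, the cytokine gene Il6 (0.61) and Lmnb1 (0.95), a nuclear lamin gene whose product is not secreted. Of 29 described cytokine and receptor genes 2 were higher, Il6 and Il15 (0.60), and 4 were lower, led by the TNF family ligand gene Tnfsf12 at -1.26. Among 16 described DNA damage sensors 3 were higher and none was lower. Of 27 described Toll-like receptor pathway genes 2 were lower, Tlr1 at -0.62 and the co-receptor gene Cd14 at -0.60. The heat shock list had 2 lower of 23, Hspb1 and Hspa1b (-0.96), and the glycolysis list 1 lower of 23, the lactate transporter gene Slc16a1 (-0.83). Krüppel-like, Id and Hes factors had 3 lower of 11, Klf2, Klf4 and Klf16 (-0.70). A single member was higher in the lists of MHC class I (the peptide transporter gene Tap1, 0.80), integrins (the gelatinase gene Mmp2, 1.24), cytoskeleton (Marcksl1, 0.78), complement (C5ar1) and tetraspanins with Ms4a genes (Ms4a6c, 0.78). The Fc and TAM receptor list had Gas6 and Pros1 higher of 25, the glucocorticoid list Cdkn1a and Ddit4 of 13, and of 13 long noncoding and host genes Pvt1 was higher while Snhg12 (-0.72) and Epb41l4aos (-0.65) were lower. The sex-linked list had 2 described members, both within the limit and on opposite sides of 0. Xist had 2571 CPM in irradiated and 2018 CPM in sham cells (0.35), and the other member was at -0.49.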

How the data were processed

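Single microglia were measured by 10x Genomics droplet sequencing. Per the submitters' processing notes the authors used Cell Ranger 2.0 and the mm10 build to make the deposited UMI counts, which are whole numbers without normalization. How barcodes were called as cells and which annotation was used is not given in the sources used here. The design text states 8095 cells, the files hold 8486 barcodes, and the filter (1000 UMIs, 500 genes, 10% mt-) left 8369. Counts were summed per library and scaled to CPM, and genes with 100 UMIs over both 1 week libraries were described. Folds were computed with Python 3.11.15, numpy 2.4.6 and scipy 1.17.1 as ratios of CPM with exact conditional binomial 95% intervals, a count of 0 being set to 3 counts, and the code was tested on simulated data. Cells were thinned without replacement to 2000 UMIs (seed 1). Coordinates come from GENCODE vM21, matched by identifier for 8192 of 8198 genes, and promoters from RefSeq.

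With 1 library per group no model was fitted. The comparison, the 48 gene lists (1430 symbols, 15 of them unmatched and 9 matched by an older symbol) and the 16 marker classes were chosen with earlier results of these data known. Genes were named by rule, as the 15 highest and 15 lowest by the interval bound nearest 0, the 10 largest gains and 10 largest losses in CPM, and up to 4 per direction and the 2 most abundant of each list, any list gene being allowed. Alternatives changed the scaling, gene and cell filters, fold limit, depth and sham library, and 1 without mitotic cells was added after seeing the data. Several lists share genes.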

Additional observations from a re-analysis of the deposited data

Results flagged for a closer look

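For 16 named genes the 1 week fold and the 6 h fold lay past 1.5-fold in opposite directions, with 1 library per group at each time, and the difference between the times was not tested. Cell cycle genes were higher at 1 week and lower at 6 h. The log2 fold was 4.04 at 1 week and -1.86 at 6 h for Top2a, 2.54 and -1.17 for Cenpf, 2.38 and -2.42 for Ube2c, 1.12 and -1.07 for Cdk1, and 1.10 and -1.16 for Mcm6, in the same order of times. Sham cells at 1 week held less of these transcripts than sham cells at 6 h (Top2a 2.11 CPM against 14.8 CPM), and its part in the 1 week folds was not tested.

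Inflammatory and antigen presentation genes were lower at 1 week and higher at 6 h. The fold was -0.74 at 1 week and 2.29 at 6 h for Ccl3, -1.31 and 1.95 for Cxcl10, -2.60 and 2.56 for Lgals3, -1.40 and 2.68 for Cd74, and -1.48 and 1.71 for H2-Ab1. The cytokine gene Csf1 was at -0.86 at 1 week and 1.73 at 6 h, Cd83 at -0.59 and 1.30, and Ank at -0.80 and 0.65. Of the transcription factors, Atf3 was at -1.16 at 1 week and 1.60 at 6 h and Cebpb at -1.0034 and 1.03. Rps12-ps3, whose counts are uncertain, was at -0.94 at 1 week and 0.60 at 6 h. Ccl3 was the gene of these whose direction depended on the sham library, at 0.49 against sham cells of 6 h.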

How the results depend on the processing

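The number of genes at least 1.5-fold higher was 382 with a minimum of 50 UMIs, 102 with 200, 1601 with no minimum and 75 at a fold of 2, and the number lower was 297, 98, 2074 and 27 in the same order. With the sham library of 6 h in place of that of 1 week 338 genes were lower, and 97 of the 213 higher and 64 of the 166 lower genes were still past 1.5-fold in their direction. Of 89 called genes given with values 60 then remained past 1.5-fold. Among these 89 the log2 fold changed sign for Ddit4 (-0.25), Ccl3 (0.49), Oasl2 (-1.36), Ifi27l2a (-0.48), Ifitm3 (-1.04), Irf7 (-1.47) and Fosb (0.33). Without cells of 3 or more mitosis genes, an alternative chosen after seeing the data and by these same genes, Top2a (-0.081), Cdca8 (-0.60) and Cdc20 (-1.08) changed sign by construction. Other scaling, cell filters and thinning reversed none of the 89 called genes. Changes of sign were not counted for the other genes of the 137 tried, whose folds were within 1.5-fold. Of the 89, 85 remained past 1.5-fold without the 5% of deepest cells (Cdk1, Ccl3, Csf1 and Cd83 did not). When thinned it was again 85 (Ccl3, Irf7, Gpr84 and Cd83 did not). Among all called genes a smaller part was called again. Without the deepest cells it was 152 of the 213 higher and 133 of the 166 lower genes. When thinned it was 78 of the 213 and 79 of the 166, where lower counts can also take a gene below the UMI minimum. No paired analysis was possible because each group holds 1 library and no test was run. Depth limits genes of few UMIs, as 3 counts are 0.389 CPM in the irradiated and 0.529 CPM in the sham library.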

Other observations

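Gm26870 was concentrated in few cells. It was seen in 8.14% of irradiated cells against 1.58% of sham cells at 2000 UMIs per cell, and the top 5% of irradiated cells held 81.8% of its UMIs, up to 29 in a cell. Its share did not follow Cdkn1a in steps, at 5.84%, 8.48%, 9.17% and 7.92% of the irradiated cells with 0, 1 to 2, 3 to 5 and 6 or more Cdkn1a UMIs.

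Among genes of the DNA damage sensors, the checkpoint kinase gene Chek2 was at 0.88 at 1 week and was higher at 6 h too, while the histone gene H2afx (0.99 at 1 week, -0.72 at 6 h) was higher at 1 week and lower at 6 h. Of the 47 neuronal marker UMIs in the irradiated library at 1 week 27 came from the noncoding RNA Meg3, which had none in the sham library.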
